A study of Mus musculus with 23 samples.

Results

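Genes of adipocyte differentiation and fatty acid handling were followed in C2C12 cells, a line of mouse myoblasts that multiply in rich serum and, once serum is lowered, join into multinucleate myotubes. The 10 genes were picked by symbol among the 32793 genes of the deposited tables, to look for an alternative fate beside the myogenic one. They comprise the transcription factors Pparg, Cebpa, Cebpb and Cebpd, the uptake and binding genes Lpl, Cd36, Fabp3 and Fabp4, and the storage and desaturation genes Plin2 and Scd1. Poly(A) RNA was sequenced from control cells (WT in the sample titles) and from cells labelled Runx1KO. Day 0 cells were in growth medium with 20% fetal bovine serum, and the others had spent 1, 3 or 6 days in differentiation medium with 2% horse serum. The series text calls the last harvest day 5, and the titles, which say day 6, were followed. Each of the 8 groups had 3 libraries, except WT on day 0 with 2, giving 23 libraries. The labels do not give the edit, the number of clones, or whether replicates were separate cultures, so every p-value here measures the spread between these samples only.

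In adipocyte precursors the early factors C/EBPβ and C/EBPδ act ahead of PPARγ and C/EBPα, which then keep each other switched on and turn on genes of lipid uptake and storage. Lipoprotein lipase frees fatty acids from triglyceride outside the cell, CD36 carries them across the membrane, and fatty acid binding proteins ferry them inside: FABP4 in adipocytes and macrophages, FABP3 in heart and skeletal muscle. SCD1 makes monounsaturated fatty acids, and PLIN2 coats lipid droplets in many cell types. Muscle fibres also burn fatty acids, so CD36, FABP3 and lipoprotein lipase belong to muscle as well as to fat.

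Total estimated counts per library ran from 22197606 to 23684077, and 14187 genes passed the filter on low counts. Of the 10 genes, 9 passed and Fabp4 did not. Runx1 mRNA, that of the targeted gene, was higher in the libraries labelled KO than in WT on all 4 days. Its log2 fold changes were 0.51, 0.35, 0.54 and 1.02 on days 0, 1, 3 and 6 (adjusted p from 6.1e-10 to 0.0015, edgeR). Since the edit is not given, the gene-level mRNA does not show whether Runx1 function was lost. The libraries are therefore called "labelled KO", and every genotype difference below is a difference between labels. One library stood apart from its group: labelled KO day 1 replicate 2, whose counts differed from those of its partners with a chi-square per degree of freedom of 58.8 and 58.4, against 3.07 to 27.3 for the other pairs. Its deviation ran with transcript GC content (r = -0.634 across 13265 genes, which are not independent replicates). In bulk RNA, fewer cells expressing a gene and less RNA per cell cannot be told apart. Markers of the labelled cell type were present: the summed level of 8 myoblast and myotube genes was 935 to 948 TPM (a level corrected for transcript length and library depth) in WT on day 0 and 2885 to 3340 TPM on day 6. In the libraries labelled KO the same sum was 1256 to 1295 TPM on day 0 and 12019 to 13687 TPM on day 6.

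The RefSeq promoter windows (GRCm38.p6, 250 bases before to 50 after a start site, 300 in all) covered 6 of the 10 genes in 8 windows: Pparg with 3, and Cebpa, Cebpb, Fabp3, Cd36 and Plin2 with 1 each. Windows for a pair of genes are shown because Pparg fell over time in both genotypes while Cd36 had the largest day 6 difference between genotypes among the 9 tested genes. The first is the third Pparg window, at chr6:115421816-115422115 on the plus strand, which starts inside the gene (6, 115360879 to 115490404). Its capitals mark matches to the C/EBP motif TTNNGCAA at positions -215 (minus strand) and -16 (plus strand) from the start site. The second is Cd36, at chr5:17835847-17836146 on the minus strand, in which none of the motifs was found.
Pparg: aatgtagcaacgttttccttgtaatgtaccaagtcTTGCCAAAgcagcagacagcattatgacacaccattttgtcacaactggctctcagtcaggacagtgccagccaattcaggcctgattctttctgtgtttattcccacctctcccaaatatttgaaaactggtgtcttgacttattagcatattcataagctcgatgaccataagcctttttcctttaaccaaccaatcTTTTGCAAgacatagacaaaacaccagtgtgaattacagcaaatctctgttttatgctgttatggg
Cd36: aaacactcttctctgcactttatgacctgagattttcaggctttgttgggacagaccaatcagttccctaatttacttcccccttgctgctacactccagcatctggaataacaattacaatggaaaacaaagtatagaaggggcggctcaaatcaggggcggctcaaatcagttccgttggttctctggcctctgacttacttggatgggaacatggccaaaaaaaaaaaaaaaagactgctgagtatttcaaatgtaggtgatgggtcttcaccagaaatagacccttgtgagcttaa
All windows were searched on both strands for the C/EBP motif, the RUNX core TGTGGT, the E-box CAGCTG and the DR1 element bound by PPAR with its partner RXR. Among all 32851 promoter windows of the same length, 10.8% held the C/EBP motif, 16.8% the RUNX core, 16.3% the E-box and 0.0396% the DR1 element. Among the 8 windows, the C/EBP motif was found in the third Pparg window alone, the E-box in the Plin2 window alone (position -16), and the RUNX core and the DR1 element in none. A match is a string of letters and not a binding site, and the gene-level counts do not separate the transcripts that start at the different Pparg windows.

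The plot of level by library shows all 10 genes, and they fell into distinct patterns. Pparg and Cebpa were lower in the libraries labelled KO on every day. Cebpd, Cd36 and, on day 6, Fabp3 were higher there late in differentiation. Lpl was higher from day 0 to day 3, Scd1 most clearly on day 1, and Plin2 was lower on days 3 and 6.

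**Figure D1:**
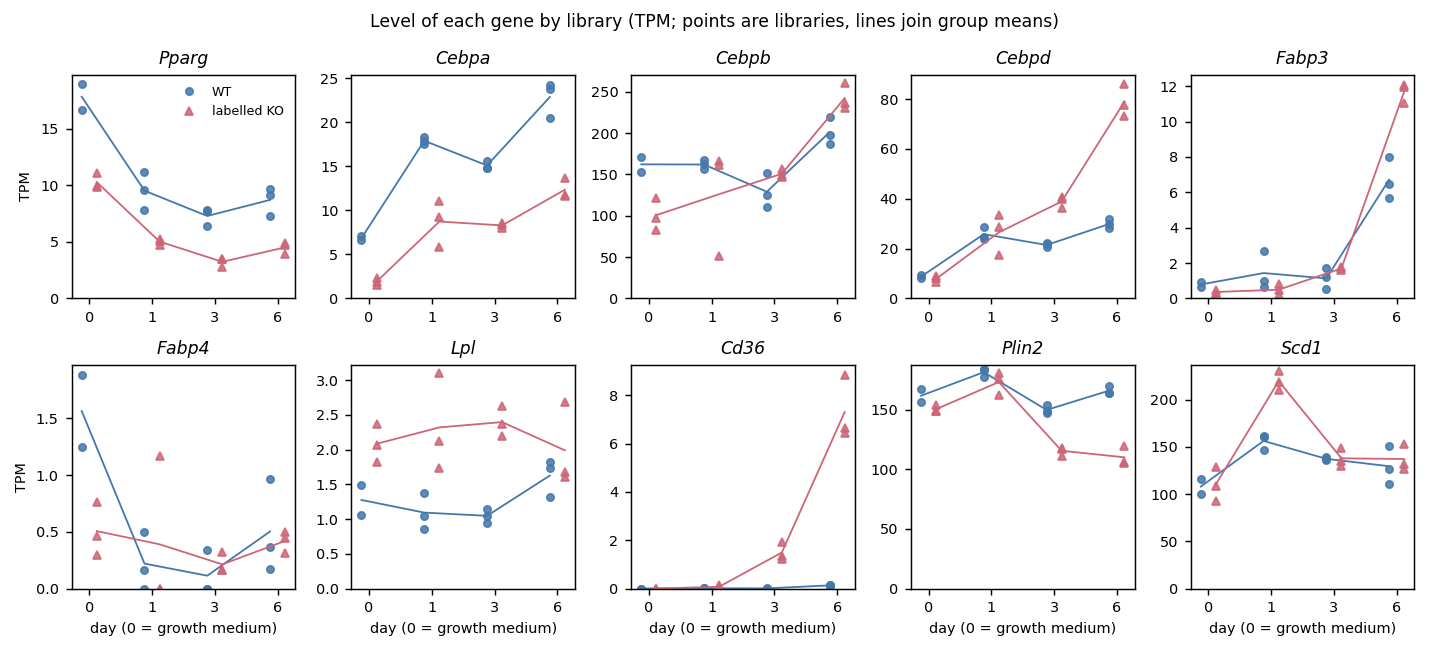
Level of each gene in TPM (vertical axis, linear, a scale of its own in each panel) by day (horizontal axis, 0 is growth medium); circles are WT libraries, triangles are libraries labelled KO, and lines join group means. Cd36 is near 0 TPM in WT on all days and reaches 6.43 to 8.82 TPM in the libraries labelled KO on day 6, whereas the Pparg and Cebpa triangles sit below the circles on each day.

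Counted over the 9 genes tested (edgeR's quasi-likelihood test, Benjamini-Hochberg adjusted p under 0.05), the labelled KO libraries on day 0 had 1 gene higher (Lpl) and 2 lower (Pparg, Cebpa), where 7.36% of all tested genes were higher and 10.1% lower. On day 1, 2 were higher (Lpl, Scd1) and 3 lower (Pparg, Cebpa, Fabp3), against 22.9% and 19.2% of all genes. On day 3, 3 were higher (Cebpd, Lpl, Cd36) and 3 lower (Pparg, Cebpa, Plin2), against 24% and 19.2%. On day 6, 4 were higher (Cebpd, Fabp3, Cd36, Scd1) and 3 lower (Pparg, Cebpa, Plin2), against 22% and 20.8%. Cd36 passed the filter on low counts only through its labelled KO libraries of days 3 and 6, since no other library exceeded 7 counts. Its place among the higher genes of those days is therefore not independent of the filter. With 9 genes these shares are coarse: about 1 in 5 of all tested genes passed in each direction on days 1 to 6, so a count of 2 or 3 is close to the background. The genes therefore matter here one by one.

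**Figure D2:**
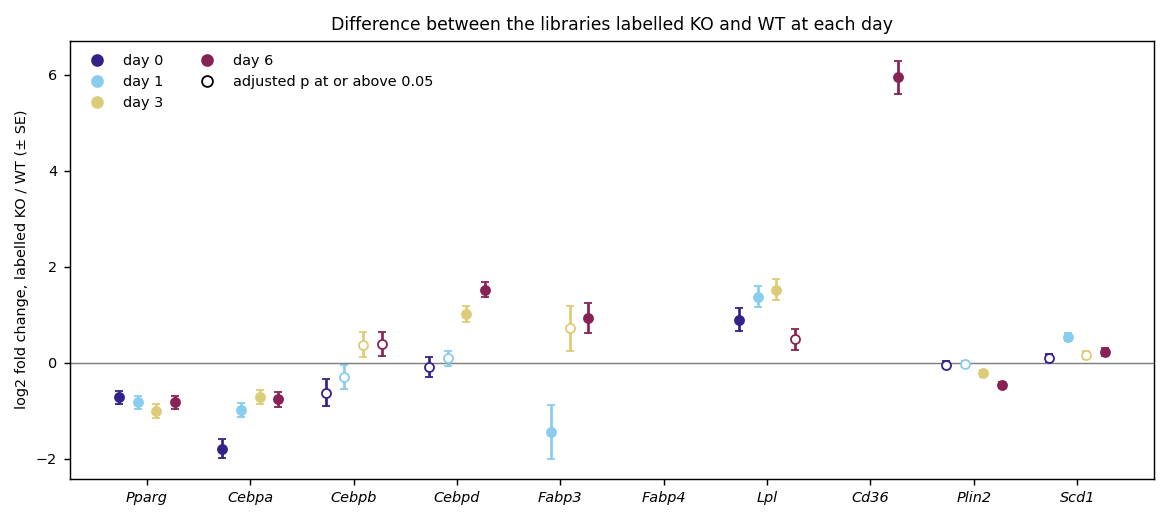
Log2 fold change of labelled KO against WT (vertical axis, edgeR, bars are ± 1 SE) for each gene (horizontal axis) at days 0, 1, 3 and 6; filled points have an adjusted p under 0.05. No point is drawn for Fabp4, which was not tested, or where either compared group stayed at or below 3 counts in every library, which leaves out Fabp3 on day 0 and Cd36 on all days but day 6 (5.95); Pparg and Cebpa lie below 0 on every day.

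Pparg (chromosome 6) encodes PPARγ, the nuclear receptor required for fat cell formation. On day 0 its level was 16.7 and 19.0 TPM in the WT libraries and 9.82, 9.96 and 11.1 TPM in those labelled KO. On day 3 it was 7.79, 6.38 and 7.69 TPM in WT and 2.74, 3.46 and 3.50 TPM in labelled KO. The genotypes did not overlap on either day, and every labelled KO library lay below every WT library. The same held on day 1 (7.86 to 11.2 TPM in WT, 4.74 to 5.22 TPM in labelled KO) and on day 6 (7.32 to 9.65 and 3.96 to 4.88 TPM). The log2 fold changes of labelled KO against WT were -0.72 ± 0.14 (SE), -0.83 ± 0.13, -1.01 ± 0.14 and -0.82 ± 0.14 on days 0, 1, 3 and 6, and edgeR's adjusted p lay between 4.0e-06 and 0.00047. Pparg also fell from day 0 in both genotypes. In WT the log2 fold changes were -1.03 ± 0.14, -1.43 ± 0.14 and -1.18 ± 0.14 on days 1, 3 and 6, and in labelled KO they were -1.14 ± 0.13, -1.73 ± 0.14 and -1.29 ± 0.13, all with an edgeR adjusted p of 9.3e-07 or lower. Among the 8 groups, WT in growth medium was highest (mean 17.8 TPM) and labelled KO on day 3 lowest (3.23 TPM). Levels of labelled KO on day 0 and of WT on days 1, 6 and 3, in that order, overlapped from neighbour to neighbour.

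Cebpa (chromosome 7) encodes C/EBPα, the partner of PPARγ in mature adipocytes. In growth medium it stood at 7.07 and 6.61 TPM in WT and at 2.26, 1.57 and 1.85 TPM in labelled KO. By day 6 it had reached 20.5, 24.3 and 23.8 TPM in WT and 13.7, 11.6 and 11.8 TPM in labelled KO. All labelled KO libraries were below all WT libraries of the same day, on days 1 and 3 too. The log2 fold change was -1.79 ± 0.20 on day 0 (edgeR adjusted p = 5.6e-07), -0.99 ± 0.15 on day 1 (1.7e-05), -0.71 ± 0.15 on day 3 (0.00060) and -0.77 ± 0.15 on day 6 (0.00019). Unlike Pparg, Cebpa rose with differentiation. Its rise over day 0 was 1.26 ± 0.18, 0.97 ± 0.18 and 1.56 ± 0.18 (log2) in WT on days 1, 3 and 6, and 2.06 ± 0.18, 2.05 ± 0.18 and 2.59 ± 0.18 in labelled KO (edgeR adjusted p of 6.1e-05 or lower). Set out by level, WT on day 6 was highest (mean 22.9 TPM) and labelled KO on day 0 lowest (1.89 TPM). The sole neighbours that overlapped were labelled KO on days 1 and 3.

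Cebpd (chromosome 16) encodes C/EBPδ, one of the early factors, which glucocorticoids and inflammatory signals also induce. In WT it stood at 9.24 and 8.17 TPM on day 0 and at 29.8, 31.8 and 28.1 TPM on day 6. In labelled KO it went from 9.05, 8.0 and 6.38 TPM to 85.9, 73.2 and 77.8 TPM. The genotypes overlapped on days 0 and 1 and were apart on days 3 and 6, when every labelled KO library was above every WT library. On day 3 the levels were 22.04, 21.76 and 20.44 TPM in WT and 40.7, 39.9 and 36.1 TPM in labelled KO. The log2 fold change of labelled KO against WT was -0.10 ± 0.21 on day 0 (edgeR adjusted p = 0.83) and 0.09 ± 0.16 on day 1 (0.70), then 1.01 ± 0.16 on day 3 (2.6e-05) and 1.52 ± 0.16 on day 6 (5.3e-08). Leaving out labelled KO day 1 replicate 2, at 17.4 TPM beside 28.7 and 33.4 TPM in its partners, gave a day 1 log2 fold change of 0.32 with an adjusted p of 0.024. Over time Cebpd rose by 1.44 ± 0.20, 1.13 ± 0.20 and 1.61 ± 0.20 (log2) in WT and by 1.62 ± 0.18, 2.24 ± 0.18 and 3.23 ± 0.18 in labelled KO (edgeR adjusted p of 4.5e-05 or lower).

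Cebpb (chromosome 2) encodes C/EBPβ, the other early factor. It was the most abundant of the 4 transcription factors by TPM in every group. Its day 0 levels were 171 and 153 TPM in WT and 122, 97.6 and 82.6 TPM in labelled KO, and its day 6 levels were 219, 198 and 187 TPM in WT and 230.1, 237 and 261 TPM in labelled KO. In TPM the labelled KO libraries were all lower than WT on day 0 and all higher on day 6, yet none of the 4 genotype differences passed the test: -0.63 ± 0.28 on day 0 (edgeR adjusted p = 0.15), -0.30 ± 0.26 on day 1 (0.36), 0.37 ± 0.26 on day 3 (0.25) and 0.39 ± 0.25 on day 6 (0.22), as log2 fold changes. The fitted spread of this gene included labelled KO day 1 replicate 2, at 51.2 TPM where its partners had 161 and 166 TPM. Without that library the log2 fold changes were -0.60 on day 0 (adjusted p = 0.0010), 0.07 on day 1 (0.72), 0.34 on day 3 (0.018) and 0.37 on day 6 (0.0089). So the day 0, day 3 and day 6 differences passed and the day 1 difference turned in sign. From day 0 to day 6 Cebpb rose in labelled KO by 1.16 ± 0.26 (log2, edgeR adjusted p = 0.00037), and in WT the change of 0.14 ± 0.29 did not pass (0.69).

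Among the 9 tested genes, the position in that library went from -1.78 (log2 CPM, counts scaled to library size) below the mean of its partners for Cebpb, through -1.02 for Fabp3, -0.93 for Cebpd and -0.90 for Cebpa, to 0.49 above for Lpl and 1.31 above for Cd36. Transcript GC content was 67.2% for Cebpb, 61.0% for Cebpa, 53.9% for Fabp3, 48.9% for Cebpd, 47.4% for Lpl and 39.6% for Cd36. Scd1, Plin2 and Pparg, at 54.9%, 50.9% and 44.6%, deviated by 0.00, -0.01 and 0.03, so the 9 genes did not line up by GC content alone. The part of GC content in the day 1 values of these genes was not tested gene by gene. Calls for Pparg, Cebpa, Lpl and Scd1 on day 1 stood with or without that library.

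**Figure D3:**
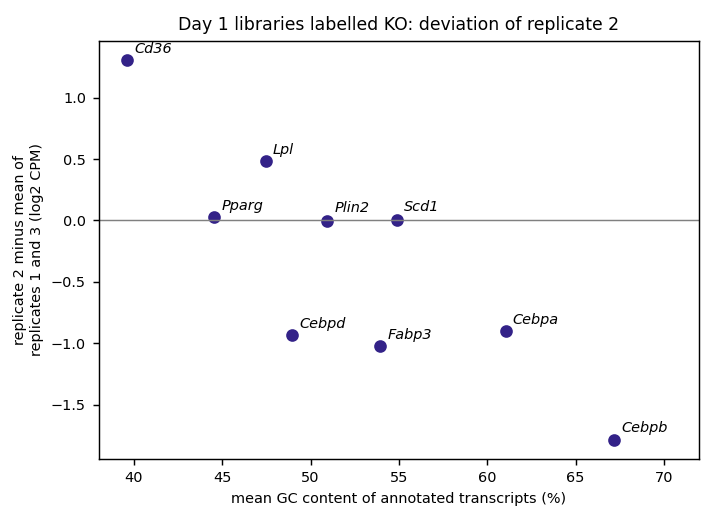
Deviation of labelled KO day 1 replicate 2 from the mean of replicates 1 and 3 (vertical axis, log2 CPM) against the mean GC content of each gene's annotated transcripts (horizontal axis, percent); each point is 1 gene. Cebpb, with the highest GC content at 67.2%, lies lowest at -1.78, and Cd36, with the lowest at 39.6%, lies highest at 1.31.

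Cd36 (chromosome 5) encodes the fatty acid translocase of the plasma membrane, present in muscle, fat, macrophages and capillary endothelium. It had 0 counts in all 5 libraries of day 0, which is below the 3 counts taken as the floor (0.126 to 0.140 CPM). In WT the counts were 1, 1 and 0 on day 1, 0, 0 and 1 on day 3, and 7, 6 and 4 on day 6. In labelled KO they were 2, 7 and 1 on day 1, 57, 63 and 91 on day 3, and 294, 439 and 333 on day 6. The libraries labelled KO were thus above every WT library on days 3 and 6. On day 6 the levels were 0.16, 0.13 and 0.10 TPM in WT and 6.43, 8.82 and 6.66 TPM in labelled KO, a log2 fold change of 5.95 ± 0.34 (edgeR adjusted p = 1.6e-11). As a ratio of counts scaled to library size, day 6 gave 63.4 (95% interval 39.4 to 109) from 1066 against 17 counts. Day 3 gave 218 (38.8 to 8666) from 211 counts against 1, and its call had an edgeR adjusted p of 3.4e-09. On day 1 the ratio was 5.16 (1.10 to 48.4) from 10 counts, 7 of them in replicate 2, against 2, and the difference did not pass (adjusted p = 0.070). These intervals were taken on counts summed over the libraries of a group, so they cover counting error only and leave out the spread between libraries. Reads were also not marked by molecular identifiers. Within labelled KO, Cd36 was at least 22.8-fold higher on day 3 and at least 112-fold higher on day 6 than the floor on day 0, and in WT it was at least 1.81-fold higher on day 6.

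Fabp3 (chromosome 4) encodes the fatty acid binding protein of heart and skeletal muscle. Up to day 3 it stayed between 0.17 and 2.68 TPM in every library. On day 6 it was 8.02, 5.67 and 6.45 TPM in WT and 11.98, 12.07 and 11.08 TPM in labelled KO. Every day 6 library exceeded every earlier one, and the genotypes did not overlap on that day. The day 6 difference was 0.93 ± 0.31 (log2, edgeR adjusted p = 0.019). It no longer passed without labelled KO day 6 replicate 2 (0.91, adjusted p = 0.053), WT day 6 replicate 2 (0.87, 0.058) or WT day 6 replicate 3 (0.80, 0.078), or with limma on log2(TPM + 0.1) (0.81, 0.14). On day 1 Fabp3 was 2.68, 0.65 and 0.96 TPM in WT and 0.80, 0.17 and 0.50 TPM in labelled KO, and these ranges overlapped. That difference passed at -1.44 ± 0.56 (edgeR adjusted p = 0.042) on 26 counts against 9, but not without labelled KO day 1 replicate 2 (-1.04, 0.17) or replicate 3 (-1.46, 0.078), or WT day 1 replicate 1 (-0.68, 0.42). With no filter on low counts its adjusted p was 0.051, and with the replicate number as a block 0.053. From day 0 to day 6 Fabp3 rose in both genotypes (edgeR adjusted p = 2.3e-05 in WT and 2.4e-09 in labelled KO). The ratio of its scaled counts was 7.51 (95% interval 3.94 to 16.1) in WT, from 118 against 10 counts, and 30.1 (14.4 to 75.7) in labelled KO, from 223 against 7. By day 3 the rise in labelled KO had passed (ratio 4.45, 1.93 to 11.95, from 32 against 7 counts, edgeR adjusted p = 0.0031), and that in WT had not (1.28, 0.573 to 3.07, adjusted p = 0.64). The difference between the genotypes in this change did not pass on either day (interaction 1.75 ± 0.86, log2, edgeR adjusted p = 0.23 on day 3, and 1.96 ± 0.79, 0.11 on day 6).

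Fabp4 (chromosome 3) encodes the adipocyte and macrophage fatty acid binding protein, a classical target of PPARγ. Its counts were 12 and 8 in WT and 3, 5 and 2 in labelled KO on day 0. On days 1 and 3 every WT library had between 0 and 3 counts, and on day 6 the counts were 1, 6 and 2 in WT and 3, 2 and 3 in labelled KO. The highest counts were thus in growth medium, in WT, and no rise with differentiation was detectable at this depth. On day 0 the ratio of labelled KO to WT was 0.341 (95% interval 0.142 to 0.763, counting error only) from 10 against 20 counts. Among the later labelled KO libraries the highest count was 7, in day 1 replicate 2.

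Lpl (chromosome 8) encodes lipoprotein lipase, which muscle and fat secrete toward capillaries. Its levels were low. On day 0 they were 1.49 and 1.06 TPM in WT and 2.37, 2.06 and 1.82 TPM in labelled KO, and on day 3 they were 1.15, 0.95 and 1.04 TPM in WT and 2.19, 2.63 and 2.37 TPM in labelled KO. From day 0 to day 3 every labelled KO library was above every WT library of its day. On day 6 the ranges overlapped in TPM, at 1.82, 1.32 and 1.74 TPM in WT and 2.69, 1.68 and 1.60 TPM in labelled KO. The log2 fold changes were 0.89 ± 0.24 on day 0 (edgeR adjusted p = 0.010), 1.37 ± 0.22 on day 1 (2.5e-05), 1.52 ± 0.22 on day 3 (5.0e-06) and 0.48 ± 0.21 on day 6 (0.068). The day 0 call was lost without WT day 0 replicate 2 (0.69, 0.16) and with limma on log2(TPM + 1) (0.44, 0.084) and log2(TPM + 0.1) (0.68, 0.080), and the day 6 difference passed without labelled KO day 6 replicate 3 (0.60, 0.044). Of the 6 contrasts of Lpl with day 0, WT on day 3 alone passed (-0.61 ± 0.25, edgeR adjusted p = 0.043), and that call was lost in 16 of 32 alternatives.

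Plin2 (chromosome 4) encodes perilipin 2, a droplet coat protein whose amount follows the cell's lipid stores. It was abundant throughout, between 105 and 184 TPM. On day 0 it was 167 and 156 TPM in WT and 154, 149 and 149 TPM in labelled KO. On day 6 it was 170.1, 164 and 164 TPM in WT and 119, 106 and 105 TPM in labelled KO. On day 3 it was 147, 148 and 154 TPM in WT, below the WT libraries of days 0 and 6, and 111, 117 and 118 TPM in labelled KO. The genotypes did not overlap on days 0, 3 and 6, though the day 0 difference did not pass. The log2 fold change was -0.04 ± 0.07 on day 0 (edgeR adjusted p = 0.77), -0.03 ± 0.07 on day 1, -0.22 ± 0.07 on day 3 (0.0087) and -0.47 ± 0.07 on day 6 (4.0e-06). Within labelled KO, Plin2 fell from day 0 by 0.46 ± 0.07 (log2) on day 3 and by 0.57 ± 0.07 on day 6 (edgeR adjusted p = 2.8e-06 and 7.4e-08). In WT the fall of 0.28 ± 0.07 passed on day 3 (0.0023), though not with limma on log2(TPM + 1) (-0.11, 0.15), and the change of -0.14 ± 0.07 on day 6 did not (0.10).

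Scd1 (chromosome 19) encodes stearoyl-CoA desaturase 1, which SREBP-1c and LXR induce. On day 1 it was 162, 160.3 and 147 TPM in WT and 210.5, 230.3 and 218 TPM in labelled KO, with no overlap. On day 0 the levels were 116 and 101 TPM in WT and 129, 109 and 93.2 TPM in labelled KO, and these overlapped, as did those of days 3 and 6. The mean of Scd1 was thus highest on day 1 in both genotypes. The day 1 difference was 0.53 ± 0.09 (log2, edgeR adjusted p = 3.0e-05), whereas day 0 (0.09 ± 0.10, 0.61) and day 3 (0.16 ± 0.09, 0.15) did not pass. On day 6 a difference of 0.22 ± 0.09 passed narrowly (0.045), but it was lost in 20 of 32 alternatives, and in TPM the day 6 ranges overlapped (111 to 151 in WT, 127 to 153 in labelled KO). From day 0 to day 1 Scd1 rose by 0.40 ± 0.10 in WT and by 0.84 ± 0.09 in labelled KO (edgeR adjusted p = 0.0012 and 2.3e-08).

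The contrasts with day 0 share the day 0 libraries of their genotype, so their values are set side by side. In WT, 3 of the 9 tested genes rose and 1 fell by day 1, where 27.1% of all genes rose and 27.6% fell. By day 3 it was 2 and 3 (29.2% and 29% of all genes), and by day 6, 4 and 1 (32.6% and 31.1%). In labelled KO, 4 rose and 1 fell by day 1 (27.2% and 25.2%), 5 and 2 by day 3 (30.4% and 27.2%), and 6 and 2 by day 6 (36.6% and 33.5%). The 4 of day 1 include Cd36, whose 10 counts, 7 of them in replicate 2, were only at least 1.03-fold over the floor of day 0. The 5 of day 3 and the 6 of day 6 include it too, and those same libraries carried it past the filter on low counts. The 6 that rose in labelled KO by day 6 were Cebpa, Cebpb, Cebpd, Fabp3, Cd36 and Scd1, and the 2 that fell were Pparg and Plin2. Of these, the Scd1 rise of 0.20 ± 0.09 (edgeR adjusted p = 0.043) was lost in 9 of 32 alternatives.

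**Figure D4:**
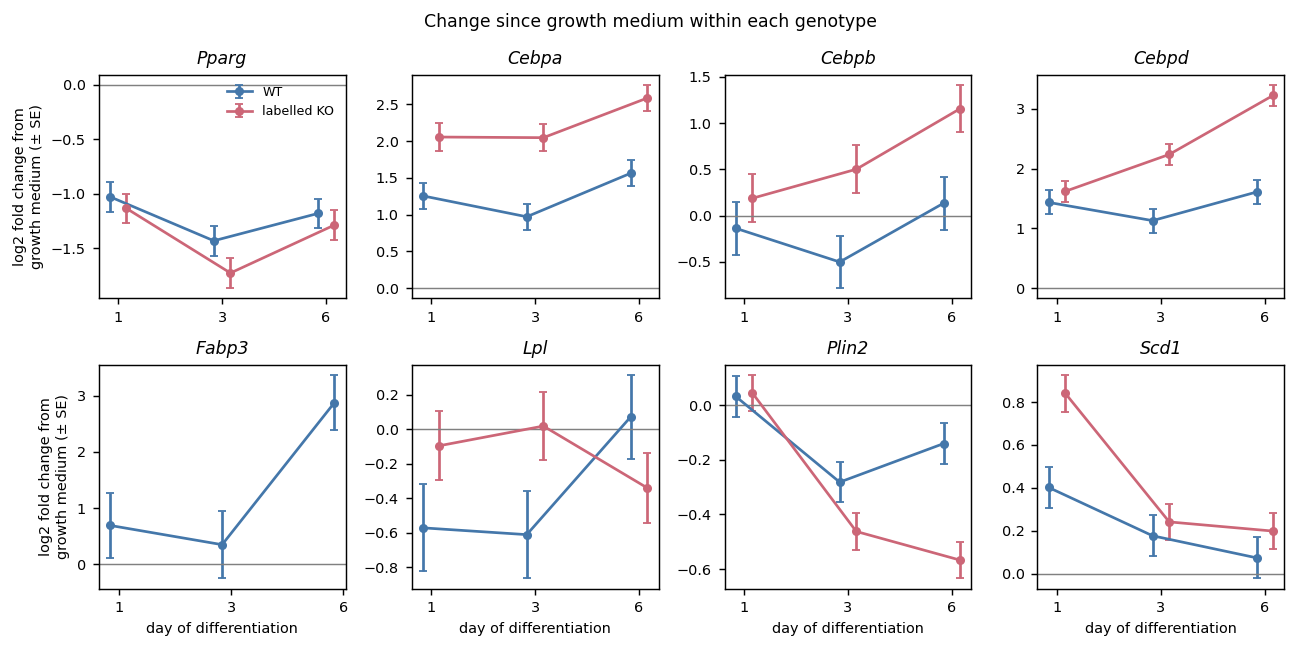
Log2 fold change from growth medium (vertical axis, edgeR, bars are ± 1 SE, a scale of its own in each panel) on days 1, 3 and 6 (horizontal axis) in WT and in labelled KO, for 8 genes; Cd36, Fabp4 and the labelled KO line of Fabp3 are left out, since their day 0 counts were at or below 3 or the gene was not tested. Pparg falls in both genotypes, to -1.43 in WT and -1.73 in labelled KO on day 3, whereas Cebpd climbs to 3.23 in labelled KO and to 1.61 in WT on day 6.

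Whether a change since day 0 differed between genotypes was tested as the genotype-by-time interaction, which could be estimated for 8 genes, since Cd36 had no counts on day 0. On day 1 no gene passed (0 higher, 0 lower, where 2.64% and 1.31% of all genes passed), although 2 had an unadjusted p under 0.05, and DESeq2 called 2 (Cebpa and Scd1), as did edgeR without labelled KO day 1 replicate 2 (Cebpa and Cebpb). On day 3 the interaction was 1.08 ± 0.26 (log2) for Cebpa and 1.11 ± 0.26 for Cebpd, with an edgeR adjusted p of 0.0069 and 0.0070. These were 2 higher and 0 lower, against 6.65% and 4.06% of all genes. On day 6 it was 1.02 ± 0.25 for Cebpa (0.0074), 1.62 ± 0.26 for Cebpd (0.00012) and -0.43 ± 0.10 for Plin2 (0.0049), so 2 were higher and 1 lower, against 7.54% and 5.42%. Cebpd on day 3 lost its call without WT day 0 replicate 1 (1.00, adjusted p = 0.052), and Cebpa lost both calls with limma on log2(TPM + 1) (0.65 and 0.61, 0.057 and 0.063). For Cebpb the interactions of 1.00 ± 0.38 on day 3 and 1.02 ± 0.38 on day 6 did not pass (edgeR adjusted p = 0.10 and 0.082) but did without labelled KO day 1 replicate 2 (0.94 and 0.97, adjusted p = 0.00040 and 0.00020). The Pparg interaction did not pass on any day, with 95% intervals of -0.48 to 0.27 on day 1, -0.68 to 0.09 on day 3 and -0.48 to 0.27 on day 6.

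Defining markers of mature adipocytes were absent or nearly so. Of 12, 6 had 0 counts in all 23 libraries: Adipoq, Cidec, Lep, Retn, Adig and Cfd. Of the 12, 9 never exceeded 1 count, and the pair that passed the filter was Plin4 and Lipe. In labelled KO on day 6, 3 of the 12 exceeded 3 counts in at least 1 library, against 2 in every other group. Plin4, a droplet coat protein of fat that muscle also makes, had 34, 33 and 18 counts in WT and 235, 317 and 314 in labelled KO on day 6, a log2 fold change of 3.35 ± 0.28 (edgeR adjusted p = 1.1e-09). Lipe, the hormone-sensitive lipase, did not pass between genotypes on any day. It rose over day 0 in both, by 1.48 ± 0.17 (log2) in WT and by 1.54 ± 0.15 in labelled KO on day 6 (edgeR adjusted p = 9.0e-08 and 3.4e-09). The summed level of the 12 was 2.57 to 3.33 TPM in WT and 2.06 to 3.38 TPM in labelled KO on day 0, and 7.09 to 8.76 and 10.6 to 12.2 TPM on day 6. For other cells that can make Cd36, Lpl or Fabp4, the macrophage markers Adgre1 and Tyrobp were at 0 in all libraries, and the 8 macrophage genes summed to 5.95 to 9.51 TPM in WT and 15.7 to 17.5 TPM in labelled KO on day 6. Of the 3 that passed the filter, Cd68, a lysosomal protein, was higher there (log2 fold change 1.68, edgeR adjusted p = 1.2e-05) and Csf1r, the receptor of the macrophage growth factor CSF-1, lower (-2.04, 5.6e-05). Endothelial markers numbered 6, with Cldn5 at 0 in all libraries, and summed to no more than 1.79 TPM; Vwf was higher on day 6 (1.07, edgeR adjusted p = 0.024). Of the 6 fibro-adipogenic and fibroblast markers, Ly6a and Dcn were higher in labelled KO on day 6 (2.56 and 0.74, edgeR adjusted p of 0.00032 or lower), Cd34 lower (-2.97, 2.8e-15), Pdgfra at -0.04 (not passing) and Thy1 at 0 counts in all libraries, and the 6 summed to 380 to 395 TPM in WT and 1080 to 1189 TPM in labelled KO. The myogenic sum, given above, moved in the same direction as Cd36, Cebpd and Fabp3 between the day 6 groups, but not all of its 8 genes did. On day 6, 6 were higher in labelled KO (Des, Myog, Ckm, Acta1, Myh3 and Mymk), where 22% of all tested genes were. Myf5 was lower, as were 20.8% of all genes, and Myod1 did not pass. The part of any of these marker differences in the levels of the 10 genes was not tested.

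Beside the 10 genes stand 7 lists of their pathways, whose counts are read against the shares of all tested genes: 7.36% higher and 10.1% lower on day 0, 22.9% and 19.2% on day 1, 24% and 19.2% on day 3, and 22% and 20.8% on day 6, and whose medians are read against that of all tested genes (0.00 on day 6). Of 12 adipogenic activators, 9 were tested, and on day 6 labelled KO had 5 higher and 1 lower with a median log2 fold change of 0.40. Zfp467 (1.37 ± 0.20), Klf5 (1.11 ± 0.12), a factor acting between the C/EBPs and Pparg, and Ppargc1a (0.73 ± 0.14), the coactivator of mitochondrial genes, were higher, and Ebf1 (-0.84 ± 0.07), which promotes adipogenesis, was lower. Of 10 restraints of adipogenesis, 9 were tested, with 3 higher and 4 lower (median -0.17). Sirt1, a deacetylase that represses PPARγ (0.68 ± 0.12), and Gata3 (0.64 ± 0.16) were higher, and Gata2 (-0.40 ± 0.13), Nr2f2 (-0.35 ± 0.10) and Wnt10b (-0.32 ± 0.11) lower. The call for Gata2 was lost without labelled KO day 6 replicate 2, and that for Wnt10b without that library, labelled KO replicate 3 or WT replicate 1 of day 6. Beside lower Pparg and Cebpa, both lists of their regulators thus held calls of both signs.

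Among genes of fatty acid synthesis and desaturation nearly all calls were higher. Of the 10 genes, all tested, 5 were higher on day 0, 7 on day 1, 4 on day 3 and 3 on day 6, and the one lower call was Elovl6 on day 6 (-0.33 ± 0.09). The median log2 fold change was 0.32 on day 1, where that of all tested genes was 0.03, and 0.09 on day 6. Scd1, with its difference on day 1, stands beside Acly, Acaca, Elovl5, Elovl6, Scd2, Fads1 and Fads2, which also passed that day. The counts of the first 3 days were smaller on TPM: with limma on log2(TPM + 1), 1 passed on day 0, 3 on day 1 and 2 on day 3, whereas 4 passed on day 6, the count of the edgeR fit, and leaving out any 1 library of day 0 left 1 to 3 on day 0. Fads2 (0.50 ± 0.10) and Fads1 (0.41 ± 0.07), desaturases of polyunsaturated fatty acids, were still higher on day 6. Acacb was higher on day 6 (0.61 ± 0.23), a call lost in 10 alternatives, but did not pass on days 1 and 3 (-0.42 ± 0.29 and -0.17 ± 0.29).

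Of 14 triglyceride and droplet genes, 13 were tested: on day 3, 1 was higher and 4 lower (Lpin1, Plin3, Hilpda and G0s2), and on day 6, 5 were higher and none lower (median 0.18). The largest day 6 changes were those of Pnpla2, the main triglyceride lipase (1.36 ± 0.15), Dgat2, which adds the last acyl chain to triglyceride (1.30 ± 0.12), and Mgll, monoglyceride lipase (1.02 ± 0.23). Fatty acid uptake, binding and activation had 5 higher and 3 lower of 9 on day 1, 4 and 4 on day 3, and 4 and 3 on day 6 (median -0.01), with 4 calls in all on day 6 instead of 7 on TPM and without labelled KO day 6 replicate 2, and 3 without WT day 6 replicate 1. Beside Cd36, Acsl1, which activates fatty acids in muscle and fat, was higher (1.29 ± 0.11), as were Dbi (0.37 ± 0.10) and Acsl3 (0.32 ± 0.10). The 3 carriers of the Slc27 family in the list were lower: Slc27a3 (-0.92 ± 0.15), Slc27a1 (-0.29 ± 0.11) and Slc27a4 (-0.29 ± 0.10). Calls were lost in 5 alternatives for Acsl3, 4 for Dbi, 3 for Slc27a1 and 2 for Slc27a4. Among partners of lipoprotein lipase and lipoprotein receptors, 6 of 7 tested (median -0.02), the endocytic receptor Lrp1 was lower (-0.58 ± 0.15). Fatty acid oxidation and its nuclear receptors, all 13 tested, had 5 higher and 2 lower (median 0.04). Ucp3, the muscle uncoupling protein (3.19 ± 0.62), and Cpt1b, the muscle carnitine palmitoyltransferase (0.59 ± 0.17), were higher, as was Ppara (1.39 ± 0.54, a call lost in 12 alternatives). Acadm (-0.83 ± 0.09) and Acadvl (-0.35 ± 0.07), acyl-CoA dehydrogenases, were lower. All log2 fold changes of single genes in this and the preceding paragraphs on lists are edgeR values for labelled KO against WT. Their adjusted p was 0.042 or lower, except for Acacb on days 1 and 3, which did not pass.

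**Figure D5:**
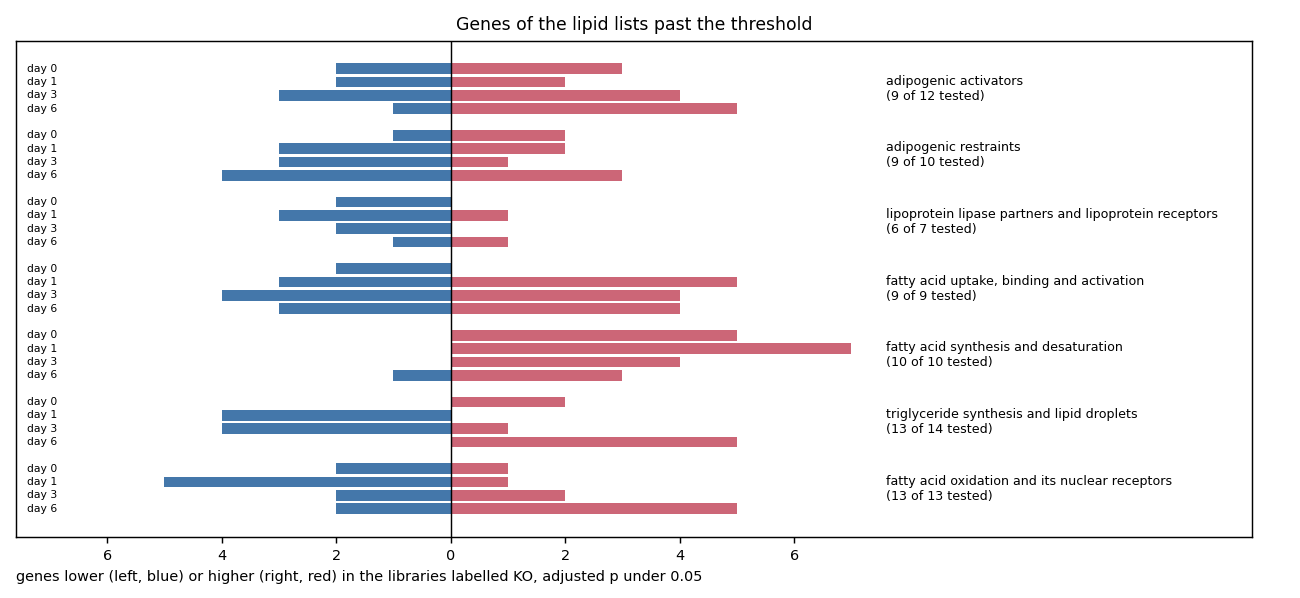
Number of genes past the threshold in labelled KO against WT (horizontal axis, lower to the left in blue and higher to the right in red, edgeR adjusted p under 0.05) for the 7 lists on days 0, 1, 3 and 6 (vertical axis). Fatty acid synthesis and desaturation has 7 higher and 0 lower on day 1, and triglyceride synthesis and lipid droplets has 0 higher and 4 lower on day 1 but 5 higher and 0 lower on day 6.

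By range of mean level over the 8 groups (log2 CPM), and leaving out Cd36, whose day 0 counts were 0, the tested genes ran from Fabp3 (4.09, with a prior count of 2 that bears on its low counts), Cebpa (3.33), Cebpd (3.23) and Pparg (2.43) through Lpl (1.48), Cebpb (1.17) and Scd1 (0.93) to Plin2 (0.64). For Cd36, Fabp3 and Cebpa, the genes with the most similar pattern over the 8 group means were found among genes reaching 5 CPM in a group. They were Gbp6, Ifih1 and Dhx58 for Cd36 (Pearson r = 0.988, 0.987 and 0.985), H2-K2, Tfeb and Layn for Fabp3 (0.968, 0.965 and 0.965), and Mgst1, Pi15 and Ppp6r2 for Cebpa (0.986, 0.985 and 0.980). These correlations describe 8 group means from shared libraries and carry no test. The genes most like Cd36 were highest in labelled KO on day 6, as Cd36 was, whereas those most like Cebpa were highest in WT, Mgst1 on day 1 and Pi15 and Ppp6r2 on day 6.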

How the data were processed

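The authors deposited 2 tables for all 23 libraries: estimated counts per gene, given as whole numbers, and TPM. Per the submitters' processing notes, Bowtie2, RSEM and mm10 were used; versions and the handling of strand are not given in the sources used here. Rounding to whole numbers changed 0 values. In R 4.3.3, the counts were filtered with filterByExpr of edgeR 4.0.16 (minimum count 10, minimum total 15), scaled by TMM and fitted with the quasi-likelihood test in a group-means model over all 8 groups. Each of the 13 contrasts was adjusted by Benjamini-Hochberg over its 14187 genes (threshold 0.05). Standard errors were derived from the F statistic. A fold against a group at 0 used a floor of 3 counts per library (0.126 to 0.140 CPM). Intervals of count ratios are exact and cover counting error only. The procedure was tested on simulated data. Total counts of 22197606 to 23684077 set the precision.

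The 10 genes, the lists (adipogenic activators, adipogenic restraints, lipoprotein lipase partners and lipoprotein receptors, fatty acid uptake, synthesis, triglyceride and droplets, oxidation) and the marker lists were chosen with earlier results of these data known. Named genes were the 10, Runx1, up to 3 genes per list and direction on day 6 (adjusted p under 0.05, groups apart in CPM), and the 3 most similar genes for the 3 members of widest range; counts of list genes on other days name their genes too, which were chosen after their values were seen. Alternatives comprised scaling by RLE or by library size, a filter dropped or set at a mean of 50 counts, the Wald test of DESeq2 1.42.0, limma 3.58.1 on TPM with a pseudocount of 1 or 0.1, fits limited to the contrasted groups, the replicate block, and leaving out each library. The same alternatives for the lists were added after seeing the data. GC content was known for 93.5% of tested genes. Protein sequences were not used here. 1 list gene is not reported here.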

Additional observations from a re-analysis of the deposited data

Results flagged for a closer look

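Changes since growth medium that differed between genotypes were singled out for 3 of the 10 genes by the test of the difference itself (genotype-by-time interaction, edgeR). On day 3 these were Cebpa (1.08, log2, a larger rise in labelled KO) and Cebpd (1.11, a larger rise in labelled KO). On day 6 they were Cebpa (1.02), Cebpd (1.62) and Plin2 (-0.43, with a fall in labelled KO and a change in WT that did not pass). For Cebpa the larger rise started from a lower level, and its day 6 level in labelled KO stayed below that of WT, whereas Cebpd started level with WT and ended above it.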

How the results depend on the processing

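Of 60 called differences of the 10 genes, 7 (5 of Cd36 and 2 of Fabp3, against groups at or below the floor) were not followed through the alternatives. Of the other 53, 42 passed with the same sign in every alternative that gave a value (30 to 32 each), and 24 of 45 uncalled ones never passed. Counts of called genes moved by over 1.5 times for the interaction alone. On day 1 (0) there was 1 without a filter and 2 with DESeq2. On day 3 (2) there were 4, and on day 6 (3) there were 5, with only the groups compared. Leaving out 1 library gave 0 to 2 on day 1 and 1 to 3 on day 3. Signs turned only in uncalled differences. With log2(TPM + 1) and log2(TPM + 0.1) these were Cebpd labelled KO against WT on day 1 (-0.00606 and -0.00812), Plin2 in WT on day 6 (0.0383 and 0.0385), Lpl in labelled KO on day 1 (0.0892 and 0.116) and the Scd1 interaction on day 3 (-0.0183 and -0.0184). With RLE scaling, no filter and DESeq2, Lpl in labelled KO on day 3 gave -0.00891, -0.0345 and -0.00892, and the Plin2 interaction on day 1 gave -0.0205, -0.00700 and -0.0205, with -0.0305 at a mean count of at least 50 and -0.0150 with only the groups compared. Leaving out 1 library gave, for labelled KO against WT, Cebpd -0.18 to 0.029 on day 0, Cebpb -0.55 to 0.066 and Cebpd -0.11 to 0.32 on day 1. For WT against day 0 it gave Fabp3 -0.033 to 1.08 on day 1 and -0.055 to 0.70 on day 3, and Lpl -0.14 to 0.37 on day 6. For labelled KO against day 0 it gave Cebpb -0.063 to 0.59 and Lpl -0.27 to 0.012 on day 1, and Lpl -0.073 to 0.12 on day 3. For the interaction it gave Cebpd -0.013 to 0.39 and Plin2 -0.051 to 0.038 on day 1, and Scd1 -0.056 to 0.13 on day 3. The cause was not tested. Library size without composition scaling moved the median of all genes from 0.05 to 0.13 (WT, day 6 against day 0) and from 0.04 to 0.12 (labelled KO, day 1).

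Same-numbered replicates did not deviate together (mean r of 0.05, 0.0030, 0.02 and -0.09 on days 0, 1, 3 and 6, and 2, 2 and 1 of 6 libraries closest to their own number on days 1, 3 and 6), so no pairing by number was seen. With so few libraries per group, this cannot exclude that same-numbered samples were handled together. With the replicate block, 4 instead of 5 genes passed on day 1 in labelled KO against WT, losing Fabp3, and 4 instead of 5 in WT on day 3; other counts were equal. Over all genes the block moved the calls on day 6 from 6082 to 5959. Calls among list genes in labelled KO against WT moved by over 1.5 times as follows, beside those given in the report. On day 0, activators went from 5 to 3 without WT day 0 replicate 1, restraints from 3 to 6 with only the groups compared and to 5 without labelled KO day 1 replicate 2, and uptake from 2 to 4 under both. Lipoprotein lipase partners and triglyceride genes went from 2 each on day 0 to 0 or 1 in 11 and 6 alternatives. On day 1, activators went from 4 to 2 and restraints from 5 to 3 with only the groups compared, and triglyceride genes from 4 to 2 with either TPM fit. Oxidation on day 3 went from 4 to 2 without a filter or without labelled KO day 3 replicate 3, WT day 3 replicate 1 or WT day 3 replicate 3. Fabp4 and, in WT, Cd36 lie at the limit of this depth.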
